A study of Mus musculus with 8 samples.

Results

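The genes described here are the extracellular and receptor part of WNT signalling: the WNT ligands, the Frizzled receptors, the co-receptors Lrp5 and Lrp6 and the secreted antagonists, together with Axin2, Lef1 and Tcf7 from inside the cell. The rule uses gene symbols alone (Wnt, Fzd, Dkk and Sfrp symbols, Frzb, Wif1, Lrp5, Lrp6, Axin2, Lef1 and Tcf7). On the array, 43 of 18138 gene symbols met the rule, with 59 of 25697 probes. Fzd9 has no probe under its symbol, and Sfrp3 appears as Frzb.

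RNA of cultured skin fibroblasts from 8 mice was measured, each on an Illumina MouseRef-8 v2.0 array of its own. Nd2-mutant mice (C57BL/6J-mtALR/LtJ) were compared with control mice (C57BL/6J-mtAKR/J). Both are conplastic strains, in which the nuclear genome of C57BL/6J is combined with the mitochondrial genome of another strain, and the mutant carries a base change in mt-Nd2, a mitochondrially encoded subunit of respiratory complex I. Each strain had 4 mice of 12 months, of which 2 were male (mutants 28 and 32, controls 16 and 17) and 2 female (mutants 34 and 35, controls 15 and 37). The cells were primary fibroblasts in serum-containing medium with no added stressor named in the labels, so that the values describe cells in culture and not intact skin.

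WNT proteins are secreted lipid-modified ligands that bind a Frizzled receptor together with Lrp5 or Lrp6. This stops the destruction of beta-catenin, which then enters the nucleus and acts with factors of the TCF/LEF family, such as those encoded by Tcf7 and Lef1. Axin2 is a feedback gene of this route. Other ligands, Wnt5a among them, act mainly without beta-catenin. Secreted antagonists hold the system in check: SFRP proteins, Frzb and Wif1 bind the ligands, whereas DKK proteins bind the co-receptors. In skin, WNT signals are known for their part in hair follicle growth and in the identity of dermal fibroblasts.

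All 10 fibroblast markers examined (among them Col1a1, Col3a1, Pdgfra, Dcn and Vim) were detected, and their summed intensity lay between 36460 and 42179 in the mutants and between 30746 and 45440 in the controls. Of the macrophage markers, 7 of 8 were detected at least once, but Ptprc was not, and their sum lay between 311 and 1658 in the mutants and between 269 and 707 in the controls. Of the endothelial markers, 5 of 6 were detected, without Kdr, with sums from 99.7 to 215 and from 96.2 to 493. Of the smooth muscle and pericyte markers, Myh11, Des and Cspg4 were detected on all 8 arrays and Rgs5 and Cnn1 on none. Each of the detected ones overlapped between the strains. The sums of all these markers did not overlap, with 86.1 to 121 in the mutants and 139.8 to 428 in the controls. Those of the skeletal muscle markers, nearly all from Acta1 and with Myod1 and Ckm undetected, were 254 to 938 and 767 to 1207, and those of the keratinocyte markers, mostly from Krt14, 191 to 1152 and 317 to 920.2. The part of such cells in genes that lay lower in the mutants was not tested. Between 10973 and 11350 probes were detected on the mutant arrays and between 10663 and 10837 on the control arrays. The array of control 15 stood apart: it correlated with the rest at 0.934 on average, and each remaining array at 0.963 to 0.974. Where leaving out this mouse changed the unadjusted call of a probe named below, both values are given.

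Of these WNT genes, the ligands were for the most part not detected, whereas all Frizzled receptors on the array but Fzd10 were detected at least once. Detection was called where the p-value against background was under 0.01, the study's own limit. Of the 43 genes, 20 (46.5%) had a probe detected on at least 1 array, and 23 had none. Over all genes on the array the share was 53.7%, and of 80 other genes of WNT signalling 53 were detected. The undetected genes were 14 of 19 ligands (Wnt1, Wnt2b, Wnt3, Wnt3a, Wnt6, Wnt7a, Wnt7b, Wnt8a, Wnt8b, Wnt9a, Wnt9b, Wnt10a, Wnt10b and Wnt11), 1 of 9 Frizzled receptors (Fzd10), 5 of 10 antagonists (Dkk1, Dkk2, Dkk4, Sfrp4 and Sfrp5) and all 3 of the intracellular genes (Axin2, Lef1 and Tcf7). The 35 probes detected on no array had background-subtracted intensities between -9.93 and 11.4, with a median of -0.23. To enter the tests, a probe had to be detected in all 4 mice of either strain, and 14 probes of 12 members met this. This was 23.7% of the member probes, against 40.5% of all probes on the array.

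**Figure D1:**
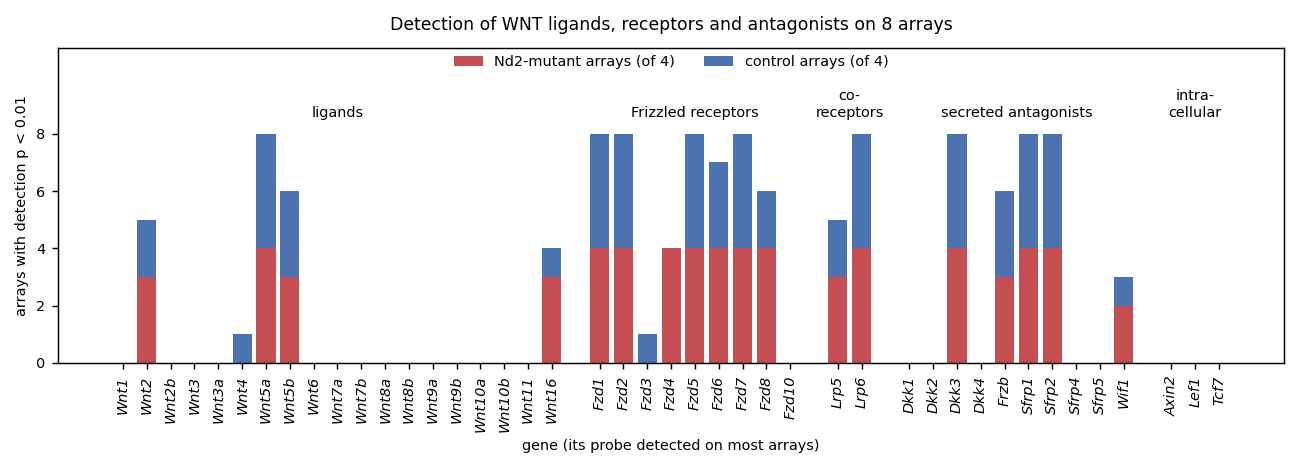
Number of arrays, of 4 per strain, on which each of the 43 genes was detected (detection p-value under 0.01), taking the probe detected on most arrays; red is Nd2-mutant, blue control, and the genes are grouped by role. Of the 19 ligands 14 have no bar, and of the 9 Frizzled receptors 1 has none.

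Between these groups stood 8 genes that were detected on some arrays without meeting the condition for a test. The ligand Wnt5b was detected in 3 mutants and 3 controls, with intensities of 18.9, 13.4, 10.8 and 16.6 in mutants 28, 32, 34 and 35 and of 18.3, 7.41, 19.01 and 24.6 in controls 15, 16, 17 and 37. The ligand Wnt2 was detected in 3 mutants and 2 controls, with intensities of 10.6, 22.0, 12.4 and 4.68 against 7.33, 24.6, 13.6 and 8.94. Both genes overlapped between the strains, and for Wnt2 the highest value of each strain belonged to a male mouse. Wnt16 has 3 probes, and the one detected most often (ILMN_2468007) was detected in 3 mutants and 1 control, with 15.4, 12.9, 6.37 and 22.3 against 24.7, 3.51, 9.87 and 2.74. Its highest value came from control 15 and its lowest from control 37, so that the controls spanned the mutants. Wnt4 was detected in control 16 alone (16.3) and the receptor Fzd3 in control 37 alone (14.2). Of the co-receptors, Lrp5 was detected in 3 mutants and 2 controls, with values between 7.62 and 16.7 and between 7.53 and 21.7. Among the antagonists, Frzb was detected in 3 mice of each strain (9.36 to 19.05 and 11.2 to 19.3), and Wif1 in 2 mutants and 1 control (6.80 to 12.8 and 2.68 to 15.3). The lowest intensity called detected on an array lay between 10.5 and 13.6, so these values are at the edge of detection, and no difference between the strains could be read from them.

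The tests used log2 of the intensity plus 16, with negative intensities taken as 0, and the strains were compared by 2-sided limma tests, adjusted after Benjamini and Hochberg for all 10414 probes that entered. A log2 fold change on this scale understates the change of a dim probe. Of the 14 member probes, 0 had an adjusted p under 0.05 in limma, as was the case for 0% of all tested probes. At an unadjusted p under 0.05 there was 1 member probe, that of Sfrp1, against 7.63% of all tested probes. It was 1 of 14 higher and 0 of 14 lower, where 4.5% of all tested probes were higher and 3.13% lower at that limit. The values of the strains overlapped for all 14 member probes, while 4.37% of all tested probes showed no overlap. In direction, 9 member probes were higher and 5 lower in the mutants, with a median log2 fold change of 0.12 (range -0.32 to 0.80). Of the 9, Fzd4 and Fzd8 were not detected in all controls and passed the condition for a test through the mutants alone. Among the 11 member probes detected on all 8 arrays, 7 were higher and 4 lower, with a median of 0.08, and among the 24 detected on at least 1 array 13 were higher and 11 lower, with a median of 0.05. Over all tested probes the median was 0.00. A count of 1 is thus near the background share and is no result about the members as a group. A lower level in these bulk cultures cannot be told apart from fewer cells of a kind that express the gene.

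**Figure D2:**
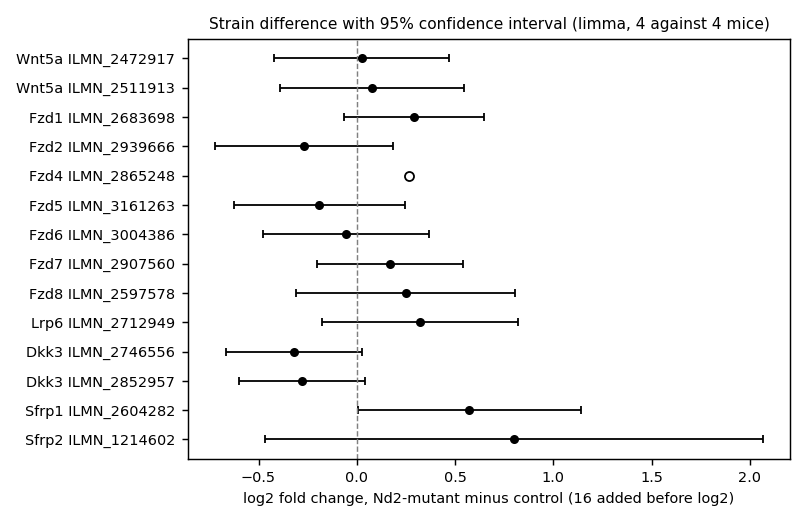
Log2 fold change (Nd2-mutant minus control, 16 added before log2) of the 14 tested probes, with the 95% confidence interval from limma on 4 against 4 mice. The open point is Fzd4, which was not above background in the controls and has no interval. The intervals of 12 probes include 0, and that of Sfrp1 begins at 0.01.

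Sfrp1, a secreted Frizzled-related protein that binds WNT ligands, was the member with the smallest p-value. Its probe (ILMN_2604282) gave intensities of 1084, 982, 604 and 1114 in mutants 28, 32, 34 and 35 and of 839, 743, 548 and 413 in controls 15, 16, 17 and 37. Of the 4 mutants, 3 lay above every control, and mutant 34 lay below 2 of them. The means were 946 ± 235 (SD, n = 4) and 636 ± 192 (SD, n = 4). In limma the log2 fold change was 0.57 (standard error 0.26, 95% interval 0.01 to 1.14, unadjusted p = 0.0482, adjusted p = 0.639). The exact permutation test of 4 against 4 values, 2-sided, gave p = 0.114, where the smallest p it can give is 0.0286. Without control 15 the log2 fold change was 0.72, with an unadjusted limma p of 0.0175. The unadjusted call was lost without mutants 28, 32 or 35 or controls 17 or 37 (log2 fold changes from 0.39 to 0.54), so that it depended on which mouse was left out. With all mice it was also lost on the linear scale, when 1 was added before log2, with no filter on detection, with sex as a term, with the methods' t-test and among females only, where the unadjusted p ran from 0.0514 to 0.334.

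Sfrp2, a second member of the same family of WNT-binding proteins, had the widest spread within strains of the members on the log2 scale with 16 added. Its probe (ILMN_1214602, chromosome 3) gave 469, 153, 231 and 790.2 in mutants 28, 32, 34 and 35 and 590.3, 93.4, 134 and 163 in controls 15, 16, 17 and 37. The highest intensity was 8.46 times the lowest, a ratio passed among the tested members by that of Fzd8 (10.3), which lies near background. The SD within the strains was 1.04 on the log2 scale, above that of 99.6% of the tested probes, whose median was 0.26. High values occurred in mutants 35 and 28 and in control 15, and in each strain the highest value belonged to a female mouse and the lowest to a male one. The means were 411 ± 287 and 245 ± 232 (SD, n = 4 each), with a log2 fold change of 0.80 (standard error 0.57, 95% interval -0.47 to 2.07, unadjusted p = 0.190 and adjusted p = 0.696 in limma, exact permutation p = 0.286). The interval covers a range from a lower level in the mutants to a level several times higher, and a difference was not detectable with 4 mice against 4. Without control 15 the log2 fold change was 1.32, with an unadjusted p of 0.0180 and an adjusted p of 0.614 in limma. The change was 0.50 without control 16 and 0.41 without mutant 35.

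The sums of several marker lists were highest in the mice with the highest Sfrp2 of each strain, mutant 35 and control 15, and others were not. The sum of the macrophage markers (Lyz2, Cd68, C1qa, C1qb, C1qc, Csf1r, Laptm5 and Ptprc) was 369.5, 311, 366 and 1658 in mutants 28, 32, 34 and 35 and 707, 284, 465 and 269 in controls 15, 16, 17 and 37. It was highest in mutant 35 and control 15. In control 15 this rested on Laptm5 (443, against 110 to 168 in the other controls). Lyz2, Cd68, C1qa, C1qb, C1qc and Csf1r were each higher in another control. The sum of the endothelial markers was highest in the same mice, with 215 in mutant 35 and 493 in control 15, and so was that of the fibroblast markers, with 42179 and 45440. Of the adipocyte markers Plin1, Cidec and Fabp4 were undetected, and Lpl, which made up nearly the whole of their sum, was 6889 in mutant 35 and 5012 in control 15 against 1584 to 4502 in the other mice. The Schwann sum was highest in mutant 35 (69.1) and control 15 (156) as well. The keratinocyte sum was highest in mutant 32 (1152, against 218 in mutant 35), and the smooth muscle and pericyte sum was 103 in mutant 35 against 121 in mutant 32. Among the controls, both of these sums were highest in control 15 (920.2 and 428). The skeletal muscle sum was lowest in mutant 35 (254) and highest in control 16 (1207). The melanocyte sum was highest in mutant 28 (25.4) and control 16 (14.3). The part of other cells in the Sfrp2 values was not tested.

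Dkk3 is a member of the Dickkopf family that, unlike Dkk1, is not known as a strong inhibitor at the co-receptors. It is the only member listed among the study's lower genes, on these same arrays, so that its direction is not independent evidence. Of its 3 probes, ILMN_2852957 (chromosome 7) gave 618, 791, 702 and 615 in mutants 28, 32, 34 and 35 and 838, 929, 724 and 826 in controls 15, 16, 17 and 37. Of the mutants, 3 lay below every control, and mutant 32 lay above control 17. The means were 681 ± 83.7 and 829 ± 83.9 (SD, n = 4 each), which is a log2 fold change of -0.28 (standard error 0.14, 95% interval -0.60 to 0.04, unadjusted p = 0.0797 and adjusted p = 0.639 in limma, exact permutation p = 0.0571).

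The second probe, ILMN_2746556, gave 527, 730.2, 523 and 524 in the mutants and 759.8, 795, 630.4 and 683 in the controls. Here too mutant 32 alone lay within the range of the controls, while the other 3 mutants lay close together, below every control. The means were 576 ± 103 and 717 ± 74.3 (SD, n = 4 each), with a log2 fold change of -0.32 (standard error 0.16, 95% interval -0.66 to 0.03, unadjusted p = 0.0682 and adjusted p = 0.639 in limma, exact permutation p = 0.0857). Across the 8 mice the 2 probes followed each other, with Pearson's r = 0.934 (exact permutation p = 0.000868, adjusted 0.00174) and Spearman's rho = 0.905 (exact permutation p = 0.00456, adjusted 0.00913). This was 1 of 2 such relations computed, and r was 0.895 without mutant 35 and control 16, the mice farthest from the median. The third probe, ILMN_1224173, was detected on no array. On neither of the 2 tested probes did the difference between the strains pass the threshold. Without mutant 32 both had an unadjusted limma p under 0.05 (0.0499 and 0.0183, log2 fold changes -0.35 and -0.43, adjusted p = 0.715 for both). With all mice, both were also under it on the linear scale (0.0329 for ILMN_2852957, 0.0494 for ILMN_2746556). The same held with no filter on detection (0.0346 and 0.0460) and with a larger constant added before log2 (0.0471 and 0.0454). With the methods' t-test ILMN_2852957 alone was under it (0.0463). Under the other alternatives neither was, and no adjusted p was under 0.05. The linear difference of ILMN_2852957, -147.624, is the coefficient that the study lists for Dkk3.

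Median sums of the skeletal muscle, smooth muscle and pericyte, Schwann and keratinocyte markers lay lower in the mutants, as Dkk3 did. Those of the fibroblast, adipocyte and melanocyte markers lay higher. Those of the macrophage and endothelial markers were nearly alike (368 against 375 and 151 against 150). The skeletal muscle sum was 477, 938, 536 and 254 in mutants 28, 32, 34 and 35 and 783, 1207, 951 and 767 in controls 15, 16, 17 and 37, so that here too mutant 32 alone lay within the range of the controls. The smooth muscle and pericyte sum was 86.1, 121, 119.8 and 103 against 428, 213, 139.8 and 176. The Schwann sum was 44.1, 46.6, 40.7 and 69.1 against 156, 72.8, 52.9 and 84.0. In mutant 32 the keratinocyte sum was 1152, against 191 to 324 in the other mutants. The part of such cells in the Dkk3 values was not tested.

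**Figure D3:**
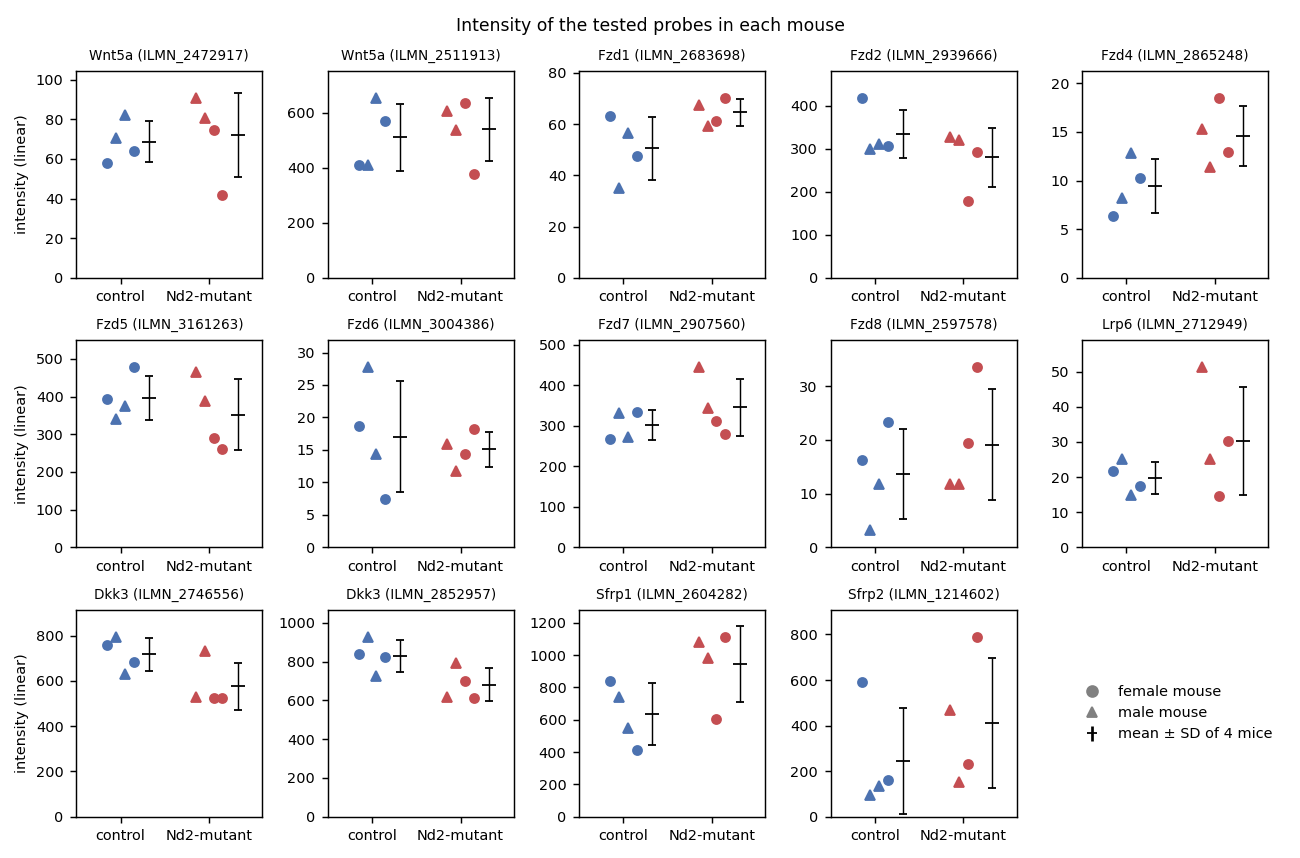
Background-subtracted intensity (linear axis from 0, its own scale in each panel) of the 14 tested probes in each mouse; circles are female and triangles male mice, blue control and red Nd2-mutant, and the bars give mean ± SD of 4 mice. The strains overlap in every panel, and Sfrp2 has high values in mutants 28 and 35 and control 15.

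Wnt5a was the only ligand with a tested probe. It encodes a ligand that signals mainly through the receptor Ror2 and the planar polarity route, and dermal fibroblasts are a known source of it. Its probe ILMN_2511913 (chromosome 14) gave 605, 539, 636 and 379 in mutants 28, 32, 34 and 35 and 409.9, 411, 655 and 570.5 in controls 15, 16, 17 and 37. The probe ILMN_2472917 gave 91.0, 80.6, 74.6 and 41.7 against 58.2, 70.3, 82.4 and 64.2. On both probes mutant 35 was the lowest of all mice and control 15 the lowest control, and the strains overlapped widely. The log2 fold changes were 0.08 (standard error 0.21, 95% interval -0.39 to 0.55) and 0.02 (standard error 0.20, 95% interval -0.42 to 0.47), with adjusted limma p-values of 0.917 and 0.979. Differences of either sign lie within these intervals, so the probes do not show that the strains are alike. Between the probes r was 0.772 (exact permutation p = 0.0181, adjusted 0.0181) and rho 0.786 (exact permutation p = 0.0279, adjusted 0.0279), but r was 0.406 without mutant 35 and control 15, so the relation rests on these mice.

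Of the Frizzled receptors, which are the seven-pass membrane receptors for WNT proteins, 7 of 9 had a tested probe. Between the strains, 4 were higher and 3 lower in the mutants (of the 4, Fzd4 and Fzd8 were tested through the mutants alone), and 0 passed the unadjusted or the adjusted threshold in limma. Fzd5 and Fzd7 lie on chromosome 1, Fzd2 on chromosome 11, Fzd1 on chromosome 5, Fzd4 on chromosome 7 and Fzd6 on chromosome 15.

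The receptor Fzd5 (ILMN_3161263) gave 466, 389, 289 and 262 in mutants 28, 32, 34 and 35 and 392, 341, 374 and 478 in controls 15, 16, 17 and 37. Both male mutants lay above the controls of their sex, while both female mutants lay below every control. The log2 fold change over all mice was -0.19 (standard error 0.20, 95% interval -0.63 to 0.24, adjusted p = 0.773 in limma). It was 0.24 among the males and -0.63 among the females, and the strain by sex interaction, in log2 units, was 0.87 (standard error 0.30, with an unadjusted p of 0.0181 in limma and an adjusted p = 0.9999). At an unadjusted p under 0.05 for this interaction it was 1 of 14 member probes, against 1.77% of all tested probes. Fzd2 (ILMN_2939666) gave 328, 321, 178 and 292 in the mutants and 419, 300.2, 311 and 307 in the controls, with both male mutants above and both female mutants below the controls of their sex. Its log2 fold change was -0.27 (standard error 0.20, 95% interval -0.72 to 0.19, adjusted p = 0.709 in limma) and its interaction 0.70 (standard error 0.38, with an unadjusted p of 0.0993). Without mutant 34 the value was -0.08 and without control 15 it was -0.16, while that of Fzd5 ran from -0.33 without mutant 28 to -0.07 without mutant 35.

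Fzd4 (ILMN_2865248), the receptor for the Norrin protein as well as for WNTs, was detected on all 4 mutant and 0 of 4 control arrays. It gave 15.3, 11.4, 18.5 and 12.9 in the mutants and 6.36, 8.18, 12.8 and 10.3 in the controls. Control 17 lay above mutant 32, so the strains overlapped. It passed the condition for a test only through the strain in which it is higher. Its controls are not above background (mean 9.42, against 14.5 in the mutants), and the mutants were at least 1.09-fold higher than the lowest detected signal on the control arrays, which is a bound (adjusted p = 0.643 in limma). A second probe of Fzd4 was detected on no array.

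Fzd7 (ILMN_2907560) gave 444, 345, 311 and 279.6 in the mutants and 268, 332, 273 and 334 in the controls, with means of 345 ± 71.5 and 302 ± 36.0 (SD, n = 4 each). Only mutants 28 and 32 lay above all controls, which gave a log2 fold change of 0.17 (standard error 0.17, 95% interval -0.20 to 0.54, adjusted p = 0.766 in limma). It was 0.05 without mutant 28 and 0.26 without mutant 35. The remaining receptors with a tested probe were Fzd1, Fzd6 and Fzd8, with log2 fold changes of 0.29, -0.06 and 0.25 and adjusted limma p-values from 0.648 to 0.938. For Fzd1 (67.6, 59.2, 61.2 and 70.4 against 63.0, 34.9, 56.7 and 47.7), control 15 was the only control within the range of the mutants. Without it the log2 fold change was 0.38, with an unadjusted limma p of 0.0283 and an adjusted p of 0.614, and without control 16 it was 0.17. For Fzd8 the value was 0.06 without control 16, 0.07 without mutant 35 and 0.40 without control 37. In the controls, Fzd6 was detected in 3 and Fzd8 in 2 of 4 mice.

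The co-receptor Lrp6 (ILMN_2712949, chromosome 6), which is phosphorylated when a WNT protein binds and then holds Axin at the membrane, gave 51.3, 25.2, 14.5 and 30.3 in mutants 28, 32, 34 and 35. In controls 15, 16, 17 and 37 it gave 21.6, 25.1, 14.98 and 17.5. Mutants 28, 32 and 35 lay above all controls, mutant 28 far above and mutant 32 only just (25.22 against 25.09 in control 16). Mutant 34 lay just below all controls. The log2 fold change was 0.32 (standard error 0.22, 95% interval -0.17 to 0.82, adjusted p = 0.694 in limma), 0.12 without mutant 28 and 0.50 without mutant 34, with an unadjusted limma p of 0.0352 in the last case.

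Male and female mice were also compared, with strain as a term. At an unadjusted p under 0.05 in limma there was 1 of 14 member probes, against 8.31% of all tested probes, and 0 at an adjusted p under 0.05. It was that of Fzd8 (ILMN_2597578), with 11.8 and 11.7 in the male mutants 28 and 32, 19.4 and 33.6 in the female mutants 34 and 35, 3.25 and 11.9 in the male controls 16 and 17 and 16.2 and 23.4 in the female controls 15 and 37. All males lay below all females, with a log2 difference, male minus female, of -0.61 (standard error 0.17, unadjusted p = 0.00619, adjusted p = 0.400, limma). The values are near background, and on the linear scale the unadjusted call was lost.

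The promoter sequence of a member was looked up in RefSeq (GRCm38.p6), in windows of 300 bases from 250 before to 50 after a transcription start. A window was found for 29 of the 43 genes, or 67.4%. Since this is under 80%, a comparison of base composition over the members was void and is not given. The letters CTTTG followed by a pair of bases that are each A or T, the core to which TCF/LEF factors bind, were searched on both strands. They occurred in 6 of 36 member windows and in 16.9% of all 32851 windows in the table. Among the 5 tested members with a window, Fzd7 alone held them, as AACAAAG (read on the plus strand) beginning 130 bases before the start. The 250 bases before the start are shown for Fzd7, with these letters in capitals, and for Sfrp2, the member with the widest spread on the log2 scale, in which they do not occur. Both genes are on the plus strand, and the sequences run 5′ to 3′ over chr1:59481897-59482146 and chr3:83766071-83766320. A match of letters is a description and shows no binding.
Fzd7: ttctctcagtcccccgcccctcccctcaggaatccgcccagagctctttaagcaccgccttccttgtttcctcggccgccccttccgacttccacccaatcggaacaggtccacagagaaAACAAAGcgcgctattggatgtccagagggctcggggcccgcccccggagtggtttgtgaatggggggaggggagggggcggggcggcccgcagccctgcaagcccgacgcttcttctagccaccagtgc
Sfrp2: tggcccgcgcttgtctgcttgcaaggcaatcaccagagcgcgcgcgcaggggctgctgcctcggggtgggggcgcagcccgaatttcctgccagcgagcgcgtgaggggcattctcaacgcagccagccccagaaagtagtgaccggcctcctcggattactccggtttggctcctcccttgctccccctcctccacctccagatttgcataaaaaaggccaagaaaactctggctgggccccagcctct

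Around the members, 80 other genes of WNT signalling with 129 probes were on the array, and 62 probes of 46 genes were tested. In limma 0 passed the adjusted threshold. At an unadjusted p under 0.05 there were 6 probes, 4 higher and 2 lower, which is 9.68% beside the 7.63% of all tested probes. With only probes detected on all 8 arrays entered, there were 5. By direction 19 of the 62 tested probes were higher and 43 lower in the mutants, with a median log2 fold change of -0.12. Over all 10414 tested probes, 5223 were higher and 5191 lower. No test was run on these counts, and several genes contribute more than 1 probe. The directions were not counted again without control 15, the array that stood apart.

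The target genes of the route lay lower most often, with 12 of 14 probes lower and a median log2 fold change of -0.38. The 14 probes belong to 10 genes, and of all 10414 tested probes 5191 were lower. Of the 12 lower probes, ILMN_2754990 of Cd44 passed the condition for a test through the controls alone. At an unadjusted p under 0.05 there were 2 of these 14 probes, in opposite directions, beside 7.63% of all tested probes. No test was run on these counts, and the directions were not counted without control 15. Cd44, a receptor for hyaluronan (ILMN_3114585), gave 952, 1489.9, 1537 and 1055 in mutants 28, 32, 34 and 35 and 1856, 1869, 1561 and 1891 in controls 15, 16, 17 and 37. On this probe every mutant lay below every control, with a log2 fold change of -0.53 (standard error 0.18, unadjusted p = 0.0144, adjusted p = 0.639, limma). The second tested Cd44 probe, ILMN_2754990, gave 26.1, 34.8, 22.4 and 6.65 in the mutants and 123, 29.8, 22.1 and 43.7 in the controls. These values overlapped, with a log2 fold change of -0.74 (standard error 0.38, unadjusted p = 0.0816, adjusted p = 0.639, limma). The remaining Cd44 probes were not tested. Cd44 is listed among the study's lower genes, on these same arrays, so that its direction is not independent evidence. Twist1, a transcription factor of mesenchymal cells (ILMN_1236188), lay the other way, with 238, 265, 326 and 294 against 194, 162, 233 and 226, giving a log2 fold change of 0.44 (standard error 0.16, unadjusted p = 0.0199, adjusted p = 0.639, limma). For ILMN_3114585 of Cd44 and the Twist1 probe the exact permutation p was 0.0286, the smallest it can give. They were the only 2 of the 62 tested pathway probes without overlap between the strains, where 4.37% of all tested probes showed none. This count is no result about the list. This Cd44 probe stayed under an unadjusted limma p of 0.05 with any mouse left out. For Twist1 this was lost without mutant 34 (log2 fold change 0.37) or control 16 (0.34). Ccnd1, which encodes cyclin D1, had 3 tested probes with log2 fold changes from -0.56 to -0.41 and unadjusted limma p-values from 0.0617 to 0.0961. Wisp1, which encodes a secreted matricellular protein, had probes that went opposite ways (0.87 and -0.26). Axin2, the most direct of the feedback targets, was not detected, as described above.

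Of the cytoplasmic transducers 7 of 20 probes were higher and 13 lower, with a median log2 fold change of -0.03. Csnk1d, a casein kinase, had 5 tested probes, of which ILMN_2746075 (log2 fold change 0.88, standard error 0.28, unadjusted limma p = 0.0104, exact permutation p = 0.0857) and ILMN_3030340 (0.36, standard error 0.16, unadjusted limma p = 0.0475, exact permutation p = 0.0571) were higher. ILMN_2746075 was detected on 4 mutant and 3 control arrays, so it passed the condition for a test only through the strain in which it is higher. It gave 69.8, 77.7, 62.7 and 40.7 in mutants 28, 32, 34 and 35 and 9.94, 18.0, 42.2 and 44.8 in controls 15, 16, 17 and 37. The other 3 probes of Csnk1d lay between -0.21 and 0.03, so the probes of this gene differed in direction. Apc, a scaffold of the complex that degrades beta-catenin, lay 0.37 higher on the log2 scale (standard error 0.16, unadjusted limma p = 0.0414, exact permutation p = 0.0857), with intensities of 41.4, 33.1, 37.4 and 24.7 in the mutants and 25.3, 15.6, 24.7 and 25.4 in the controls. Among the extracellular co-factors Gpc4, a glypican of the cell surface, differed by -0.41 on the log2 scale (standard error 0.17, unadjusted limma p = 0.0382, exact permutation p = 0.0857), with 142, 223, 165 and 179 against 307, 230.1, 220.4 and 208. The adjusted limma p of each of these probes was 0.639. Gpc4, like Cd44, is listed among the study's lower genes on these same arrays, so its direction is not independent evidence. Without control 15, the array that stood apart, the values were 0.65 and 0.24 for Csnk1d, 0.40 for Apc and -0.30 for Gpc4, and the second Csnk1d probe and Gpc4 were no longer under an unadjusted limma p of 0.05 (p-values of 0.0964 and 0.0833). Without other single mice these calls were lost too, that of Apc without mutants 28, 32 or 34 or controls 16 or 17, of the second Csnk1d probe without mutants 28, 32 or 34 or controls 16 or 37, and of Gpc4 without mutants 28, 34 or 35 or control 16. Of the nuclear factors 10 of 12 probes were lower, with a median of -0.12, where 5191 of all 10414 tested probes were lower. At an unadjusted p under 0.05 there were 0 of these 12. Among the lower probes, control 15 was the highest of all mice for Bcl9l, Ep300, Pygo2, Tcf7l2 and Tle2. For Tle2 it gave 143, against 43.8 to 56.6 in the other mice. Control 16 was the highest for Smarca4, Tle1 and Tle4, and mutant 35 for Pygo1. The directions were not counted without control 15.

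**Figure D4:**
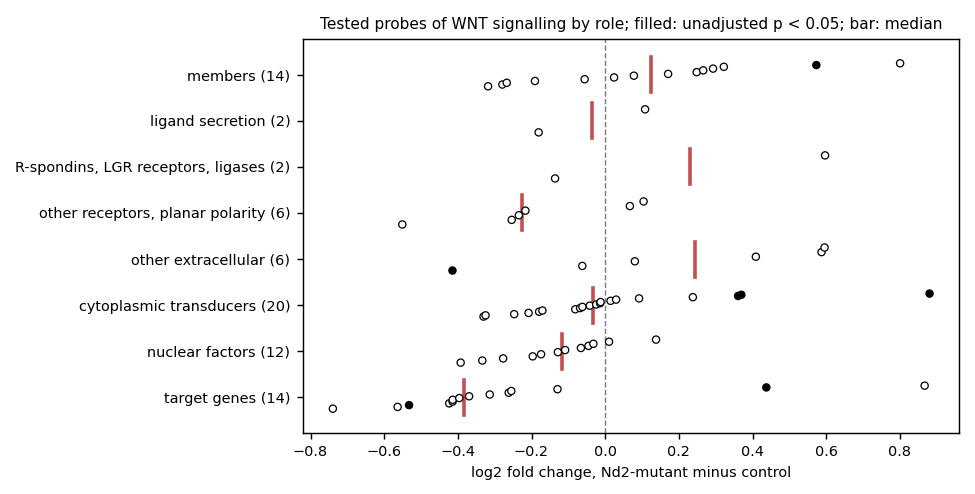
Log2 fold change (Nd2-mutant minus control) of each tested probe of WNT signalling by role, with the number of probes in brackets; filled points have an unadjusted limma p under 0.05 and red bars are medians. The 14 member probes have a median of 0.12 and the 14 probes of target genes one of -0.38, and no probe passed the adjusted threshold.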

How the data were processed

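Total RNA of skin fibroblasts from 8 mice was measured, each mouse on a MouseRef-8 v2.0 array. The authors extracted and quantile normalized the data in GenomeStudio and subtracted the background, so the deposited intensity values are on a linear scale and can be below 0. The detection p-value of each probe, also deposited by the authors, compares it with negative controls on the array. The 2 deposited tables hold the same values, and the non-normalized values were not analysed here. The labels gave strain, sex and mouse number, and no column was left unmapped.

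Negative intensities were taken as 0, and log2 of the intensity plus 16 was used. Probes detected (p-value under 0.01) on all 4 arrays of at least 1 strain were compared by lmFit and eBayes of limma 3.58.1 (R 4.3.3), with p-values adjusted after Benjamini and Hochberg for 10414 probes and a threshold of 0.05. Strains were compared without covariates, sexes with strain as a term, and a strain by sex term was added for the interaction. Single probes were also put to the exact permutation test. The steps were tested on simulated data. The number of arrays limits the precision.

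The members, the list of other WNT genes, the marker lists and the tests were chosen with earlier results of these data known. Values in every mouse are given for members at an unadjusted p under 0.05 or without overlap, for Dkk3, for the 2 tested probes with the highest mean in each role and for genes with several tested probes. Other members shown mouse by mouse were chosen after their values were seen. From the pathway list, genes at an unadjusted p under 0.05 or without overlap are named. Ccnd1 and Wisp1 were chosen after their values were seen. Alternatives were 1 or 50 added before log2, the linear scale, other detection filters, centred arrays, a trend in eBayes, array weights, sex as a term, the methods' t-test, each sex alone, and each mouse left out in turn.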

Additional observations from a re-analysis of the deposited data

Results flagged for a closer look

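In 2 of 28 groups of 4 mice, 1 mouse lay far from the other 3. Chance gives about 1 in 20 such groups, or 1.4 here. On the Dkk3 probe ILMN_2746556, mutant 32 (intensity 730.2) stood apart from the other mutants, with a gap of 0.977 of the range of the group. On the Fzd2 probe ILMN_2939666, control 15 (intensity 419) stood apart from the other controls, with a gap of 0.899 of the range. Without these mice the log2 fold changes were -0.43 for this Dkk3 probe and -0.16 for Fzd2.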

How the results depend on the processing

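With an adjusted limma p under 0.05 as the threshold, 0 member probes passed under any alternative run, and the smallest adjusted p of a member probe was 0.367. The count at an unadjusted p under 0.05, which was 1, became 3 with 50 added before log2 and with no filter on detection, 2 on the linear scale, with array weights, with the methods' t-test and among males only, and 0 with sex as a term. With 50 added it was Sfrp1 and both Dkk3 probes that passed. Leaving out each mouse in turn gave 0 to 3, with 3 without control 15. The median log2 fold change of 0.12 became -0.014 with no filter, where the undetected probes enter, and 0.031 to 0.22 without each mouse in turn. The count of 6 in the pathway list became 2 among females only and 2 to 10 without each mouse in turn (2 without control 16, 10 without control 17, 3 without mutant 34, 8 without control 15). The count of 1 for sex became 0 on the linear scale and with probes detected on all 8 arrays, 2 with probes detected on at least 1 array, 4 with no filter and with array weights, and 1 to 3 without each mouse in turn. The count of 1 for strain by sex became 2 with no filter and 0 to 2 without each mouse in turn. The cause of these shifts was not tested.

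Of the 14 member probes, 8 kept their direction under every alternative run. The log2 fold change turned to 0.083 for Fzd2 and 0.24 for Fzd5 among males only, and to -0.021 for Fzd7 among females only. For Fzd6 it turned to 0.086 with array weights and 0.18 among females only, and it ran from -0.21 to 0.091 without each mouse in turn. For Wnt5a it turned to -0.052 with array weights (ILMN_2511913) and -0.093 among females only (ILMN_2472917), and it ran from -0.016 to 0.23 and from -0.082 to 0.21 without each mouse in turn. No paired analysis was possible because no mouse number is shared between the strains. The alternatives with normexp background correction and with a chip block were not run, since non-normalized values and chip names were not at hand. Signal over background limits Fzd4, Fzd6 and Fzd8, which lie near the edge of detection.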

Other observations

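Lgr5, a receptor for R-spondins that raises the response to WNT proteins, was chosen after its values were seen. Its probe (ILMN_2650008, chromosome 10) gave 226, 73.8, 73.5 and 238 in mutants 28, 32, 34 and 35 and 164, 30.9, 54.1 and 144 in controls 15, 16, 17 and 37. As for Sfrp2, the highest value of each strain belonged to mutant 35 and control 15, and the strains differed by 0.60 on the log2 scale (standard error 0.49), with an adjusted p = 0.725 in limma. The ligand Rspo3 (ILMN_3162785, chromosome 10) gave 77.5, 53.7, 28.3 and 25.3 against 31.7, 47.8, 54.6 and 64.9, with mutant 35 the lowest of all mice.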
